A study of Solanum lycopersicum with 4 samples.

Results

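The genes described here are 10 tomato (Solanum lycopersicum) nuclear genes of photosynthesis, chosen by identifier out of 34727 listed in the deposited table. They are 3 genes for the small subunit of Rubisco, called rbcS, and 7 genes for chlorophyll a/b-binding proteins, called CAB. Their transcripts were measured by RNA sequencing in meristems of tmf mutant plants, which carry a mutation in TERMINATING FLOWER (TMF), and of wild-type plants. All meristems came from plants 8 days past germination, which the labels call late vegetative, and were fixed in acetone and pooled over several plants of a genotype. Each genotype had 2 biological replicates, so every value below is that of a pool. The sources used here state neither the mutant allele nor the tomato background.

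Rubisco fixes carbon dioxide in the chloroplast stroma. Its small subunit is made from a family of nuclear rbcS genes, while the large subunit is encoded in the plastid. Chlorophyll a/b-binding proteins form the antenna complexes that collect light in the thylakoid membrane, and CAB genes lie partly in tandem arrays of near-identical copies. Both families are induced by light and are strongly transcribed in green leaf tissue, while the dome of a shoot meristem holds undeveloped plastids, so these transcripts serve as markers of greening tissue in a dissected pool.

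The rbcS genes are Solyc02g063150.2.1 (rbcS1) and Solyc02g085950.2.1 on chromosome 2 and Solyc03g034220.2.1 (RBCS-2A) on chromosome 3. Solyc02g085950 falls where the RefSeq gene table places RBCS3 and RBCS4 side by side, and which of these it counts was not resolved. The CAB genes form 2 tandem clusters. Solyc02g070940.1.1, Solyc02g070950.1.1, Solyc02g070970.1.1 and Solyc02g070980.1.1 lie where the RefSeq table places Cab-1A to Cab-1D, and Solyc03g005760.1.1, Solyc03g005770.1.1 and Solyc03g005780.1.1 lie where it places the Cab-3 genes. The identifiers within a cluster could not be tied to the letters, so these genes are given by identifier. The sources used here do not say how reads matching several copies were counted, so the split of reads between copies of a cluster is uncertain. A sum over a cluster does not depend on that split. It does depend on whether such reads were dropped, counted more than once or given to similar copies outside the sum. Transcript lengths were not at hand, so levels of different genes are not compared.

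The libraries held from 17540331 to 28310492 gene-assigned reads. Levels are given in normalised reads, scaled to a total of 10000000 for each library. TMF (Solyc09g090180), the mutated gene, was at 6.1 and 6.27 normalised reads in mutant replicates 1 and 2 and at 1238 and 2224 in wild-type replicates 1 and 2 (limma, Benjamini-Hochberg adjusted p = 7.72e-05). Reads of 7 shoot meristem genes that the RefSeq table names were present in every library. Among them is the stem cell regulator WUS, at 157 and 46.7 in the tmf pools and 51.9 and 92.7 in the wild-type pools. Another is CLV3, at 114 and 25.7 against 18 and 66.6. With no library of another tissue, these reads do not measure how much of each pool was meristem. Mutant replicate 1 was the lowest library at every gene described here, by a distance that varied between genes, as the next paragraphs give. With 2 libraries a genotype, p-values measure the spread between these pools.

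All 10 genes were read at their lowest level in mutant replicate 1, against 31.3% of all genes tested. Between the genotypes, the rbcS genes overlapped. Of the 7 CAB genes, 6 were lower in both mutant libraries than in both wild-type libraries, against 12.1% of all genes tested. In a pool, fewer green cells and less of these transcripts per cell cannot be told apart. None of the 10 passed the test across all genes in either direction (limma on log2(value + 1), adjusted p from 0.303 to 0.999), where 0.215% of the 21437 genes tested passed. On read counts recovered from the scaled values, edgeR's quasi-likelihood test called 0 of the 10, against 0.233% of all genes tested, and DESeq2 called 1, against 0.998%. All 10 passed the filter on low values, a mean of at least 1 normalised read.

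**Figure D1:**
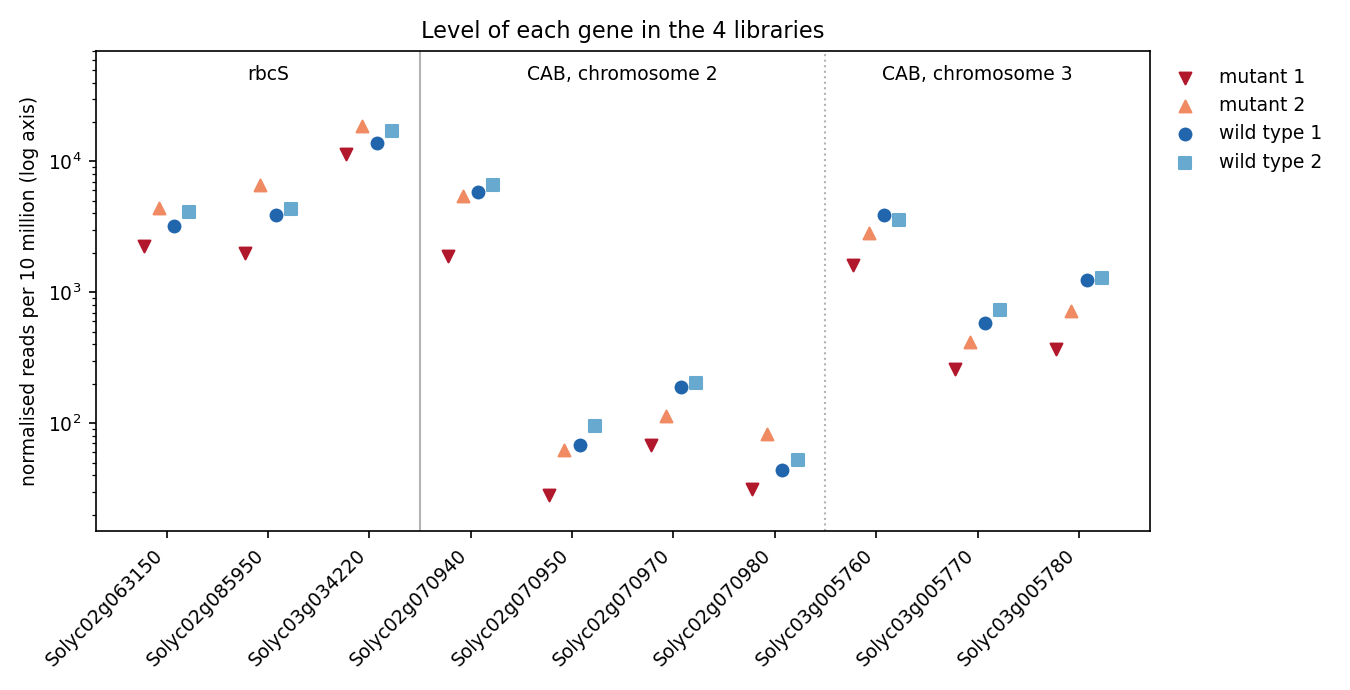
Normalised reads (log axis) of the 3 rbcS genes and the 7 CAB genes in each of the 4 libraries; each point is 1 library. The downward triangles of mutant replicate 1 are the lowest point of all 10 genes, and for 6 CAB genes both mutant points lie below both wild-type points.

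The small subunit genes are taken first. RBCS-2A (Solyc03g034220) was at 11347 and 18648 normalised reads in the tmf pools and at 13742 and 16994 in the wild-type pools. The mutant libraries were thus the lowest and the highest of the 4, and the wild-type libraries lay between them. Its means were 14998 ± 5163 in the tmf pools and 15368 ± 2300 in the wild-type pools (SD, n = 2 each), with a log2 fold change of -0.07 ± 0.44 (SE; adjusted p = 0.999 in limma) and a 95% interval from -1.08 to 0.94.

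The gene rbcS1 (Solyc02g063150) was at 2238 and 4438 in the tmf pools and at 3218 and 4122 in the wild-type pools. Solyc02g085950 was at 1979 and 6549 in the tmf pools and at 3908 and 4303 in the wild-type pools. Both showed the same order as RBCS-2A, with the wild-type libraries between mutant replicate 1 below and mutant replicate 2 above. Their log2 fold changes were -0.21 ± 0.36 and -0.19 ± 0.50 (SE; in limma, adjusted p = 0.999 for each). The 95% intervals ran from -1.04 to 0.63 and from -1.34 to 0.97. With mutant replicate 1 left out, all 3 rbcS genes had positive log2 fold changes, at 0.29 for RBCS-2A, 0.29 for rbcS1 and 0.68 for Solyc02g085950.

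Summed over the 3 genes, rbcS was at 15565 and 29636 in the tmf pools and at 20868 and 25419 in the wild-type pools. The genotype means of this sum were 22600.1 and 23144, a ratio of 1.02, while mutant replicate 2 held 1.9 times the level of mutant replicate 1. The wild-type libraries differed by a ratio of 1.22.

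The split of rbcS reads between the 3 genes also differed between libraries. RBCS-2A took 72.9% of the rbcS reads in mutant replicate 1 (95% Wilson interval 72.4% to 73.4%), 62.9% in mutant replicate 2, and 65.9% and 66.9% in the wild-type pools. Solyc02g085950 took 12.7% in mutant replicate 1 (interval 12.3% to 13.1%) and 22.1% in mutant replicate 2 (21.7% to 22.5%), against 18.7% and 16.9% in the wild-type pools. The share of rbcS1 stayed between 14.4% and 16.2%. These shares are of reads, with no correction for length, and the intervals cover counting error only. The mutant libraries lay at opposite ends for both RBCS-2A and Solyc02g085950, with the wild type between them.

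In the chromosome 2 cluster, Solyc02g070940 gave most of the reads. It was at 1901 and 5392 normalised reads in the tmf pools and at 5849 and 6618 in the wild-type pools. Mutant replicate 2 was close below the wild type and mutant replicate 1 far below it. The log2 fold change was -0.96 ± 0.46 (SE; in limma, adjusted p = 0.851), with a 95% interval from -2.02 to 0.11. The fold change itself moved to -0.21 on the log2 scale when mutant replicate 1 was left out and to -1.71 when mutant replicate 2 was.

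Solyc02g070970 was at 68.6 and 113 in the tmf pools and at 188 and 201 in the wild-type pools. Both mutant libraries were well below the wild type, and the means were 91 ± 31.7 and 195 ± 9.05 (SD, n = 2 each). Its log2 fold change was -1.13 ± 0.31 (SE; in limma, adjusted p = 0.406) and -0.77 without mutant replicate 1. Solyc02g070950 was at 28.5 and 62.7 in the tmf pools and at 68.2 and 95.7 in the wild-type pools. Its groups did not overlap, but mutant replicate 2 and wild-type replicate 1 were close (log2 fold change -0.92 ± 0.44 SE; limma adjusted p = 0.846).

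Solyc02g070980 was the exception among the CAB genes. It was at 31.5 and 83.2 in the tmf pools and at 44.2 and 52.7 in the wild-type pools, so that the wild-type libraries lay between the mutant libraries as for rbcS. Its log2 fold change was 0.09 ± 0.48 (SE; in limma, adjusted p = 0.999). This gene rested on 62 to 146 reads a library, and it lies beside copies with which it may share reads.

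In the chromosome 3 cluster, all 3 genes were lower in both mutant libraries than in both wild-type libraries. Solyc03g005780 was at 366 and 722 in the tmf pools and at 1241 and 1280.4 in the wild-type pools. The wild-type libraries nearly coincided, and both mutant libraries were far below them. The wild-type mean was 2.32 times the mutant mean, and the log2 fold change was -1.29 ± 0.32 (SE; in limma, adjusted p = 0.303), with a 95% interval from -2.03 to -0.56 that carries no correction for the number of genes.

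Solyc03g005780 passed under other tests of the same values. It was lower in the tmf pools with DESeq2 on recovered reads (adjusted p = 0.0145), where 0.289% of genes were called lower. It also passed in limma with the replicate number as a block (adjusted p = 0.00665, with 0.448% called lower), and with the blocks crossed (0.0295, with 0.275% called lower), although these numbers are not known to pair the pools. edgeR's quasi-likelihood test gave an adjusted p of 0.349. Without mutant replicate 1 its log2 fold change was -0.80 (limma adjusted p = 0.858).

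Solyc03g005760 gave most reads of this cluster, at 1609 and 2861 in the tmf pools and at 3898 and 3578 in the wild-type pools. Solyc03g005770 was at 258 and 416 in the tmf pools and at 586 and 726 in the wild-type pools. In both genes the order from lowest to highest was mutant replicate 1, mutant replicate 2 and then the wild type. Their log2 fold changes were -0.80 ± 0.32 and -0.99 ± 0.28 (SE; in limma, adjusted p = 0.74 and 0.43).

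**Figure D2:**
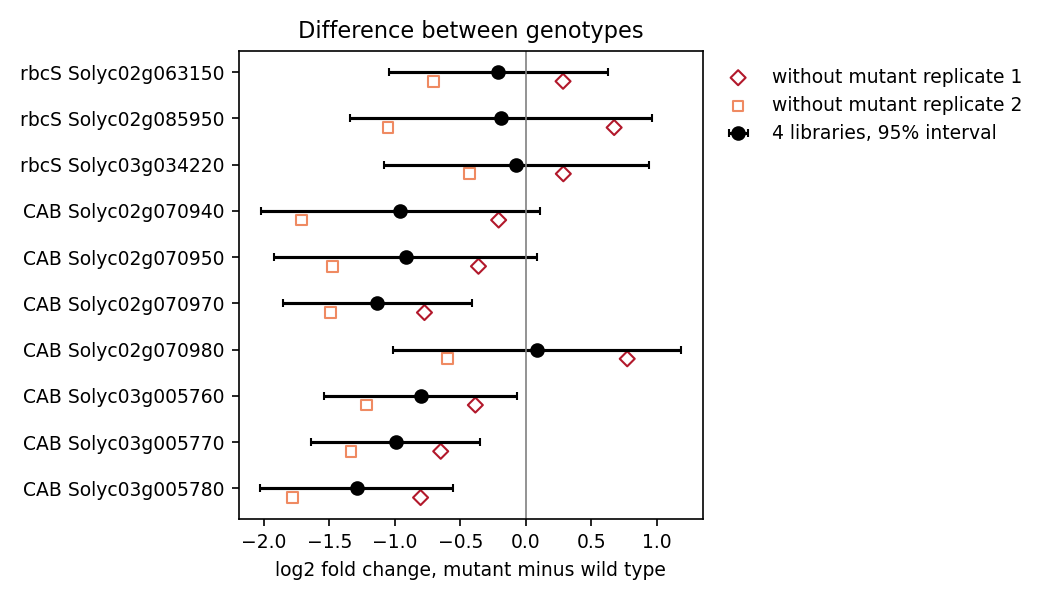
Log2 fold change of each gene, mutant minus wild type, from limma on log2(value + 1): filled circles with 95% intervals for all 4 libraries, open diamonds without mutant replicate 1 and open squares without mutant replicate 2. The 3 rbcS genes fall on both sides of 0 depending on the mutant library used, while 6 CAB genes stay below 0 either way.

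Counted together, 9 of the 10 genes had a negative log2 fold change, where 44.3% of all genes tested did. Their median was -0.86, with -0.96 over the CAB genes and -0.19 over the rbcS genes, against 0.04 over all genes tested. In 6 of the 10, all of them CAB genes, both mutant libraries lay below both wild-type libraries, against 12.1% of all genes tested and 13.2% of those with a mean of at least 100. At an unadjusted p under 0.05, 4 of the 10 were lower in the tmf pools, Solyc02g070970, Solyc03g005760, Solyc03g005770 and Solyc03g005780, against 1.53% of all genes. These copies lie in 2 clusters and may share reads, so they are not independent counts. Without mutant replicate 1, the median over the CAB genes was -0.38, 6 of the 7 were still negative, and the median over all genes tested was 0.10.

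Summed over the 7 genes, CAB was at 4263 and 9649.8 in the tmf pools and at 11875 and 12552 in the wild-type pools. The tmf pools were a factor of 2.26 apart and the wild-type pools 1.06. The mean was 6956 ± 3809 in the tmf pools and 12213 ± 479 in the wild-type pools (SD, n = 2 each), a ratio of 1.76 with the wild type higher. Both clusters were lower in both tmf pools. The chromosome 2 sum was 2030 and 5651 in the tmf pools against 6149.7 and 6967 in the wild-type pools, and the chromosome 3 sum 2233 and 3999 against 5725 and 5585. The wild-type mean was 1.71 times the mutant mean on chromosome 2 and 1.81 times on chromosome 3.

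Over all 10 genes, CAB reads relative to rbcS reads were closer between the 2 mutant libraries than either sum was. There were 0.274 and 0.326 CAB reads for each rbcS read in the tmf pools and 0.569 and 0.494 in the wild-type pools. The ratio was 0.3 ± 0.0366 in the tmf pools and 0.531 ± 0.0532 in the wild-type pools (SD, n = 2 each), and the groups did not overlap. The difference, a factor of 1.77, was larger than the spread within either genotype. No test was made of it, since the genes were chosen with results known and the smallest two-sided p that an exact permutation of 2 against 2 libraries allows is 0.333. The chromosome 2 cluster gave 0.13 and 0.191 in the tmf pools against 0.295 and 0.274 in the wild-type pools, and the chromosome 3 cluster 0.143 and 0.135 against 0.274 and 0.22. Without the most abundant gene of each family, the ratio was 0.56 and 0.388 in the tmf pools and 0.846 and 0.704 in the wild-type pools. The mutant libraries then stood in the opposite order and further apart, and the groups still did not overlap. The log2 ratio of the genotype means was -0.71 in that case, against -0.83 with all 10 genes, and leaving out any library gave values from -0.96 to -0.71.

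**Figure D3:**
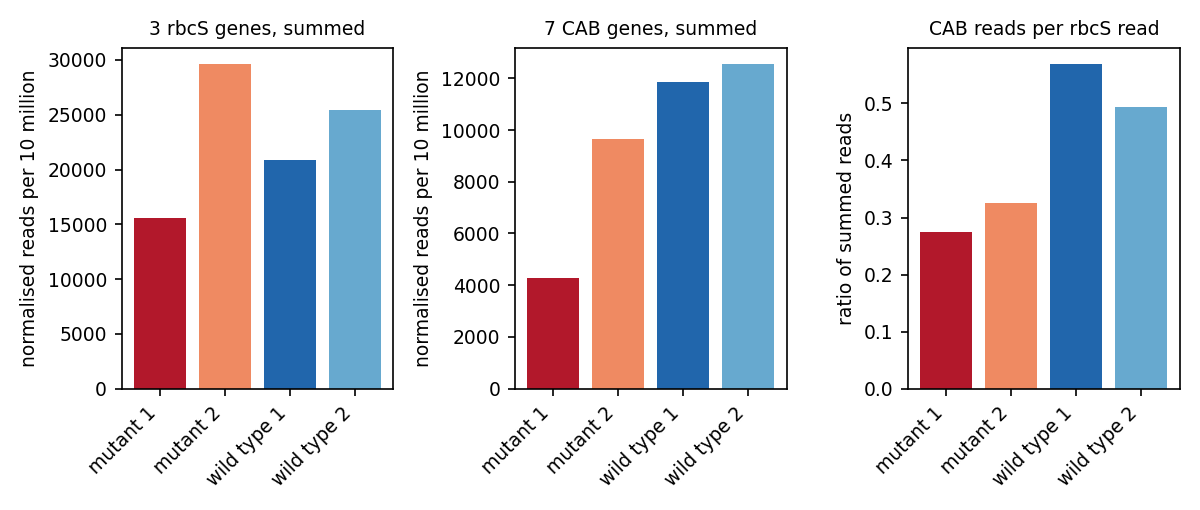
Summed normalised reads of the 3 rbcS genes (left) and the 7 CAB genes (middle), and CAB reads per rbcS read (right), with 1 bar for each library and axes from 0. The rbcS bars of the wild type lie between those of the mutant, whereas the ratio is 0.274 and 0.326 in the tmf pools and 0.569 and 0.494 in the wild-type pools.

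The split of reads within the CAB family overlapped between the genotypes for 5 of the 7 genes, among them those with the most reads. Solyc02g070940 took 44.6% and 55.9% of the CAB reads in the tmf pools and 49.3% and 52.7% in the wild-type pools. Solyc03g005760 took 37.7% and 29.6% in the tmf pools and 32.8% and 28.5% in the wild-type pools. Solyc03g005780 took a smaller share in the tmf pools, 8.6% (95% Wilson interval 8.02% to 9.22%) and 7.49% (7.1% to 7.89%), than in the wild-type pools, with 10.5% (10.1% to 10.8%) and 10.2% (9.86% to 10.6%). The opposite held for Solyc02g070980, whose share was 0.739% and 0.863% in the tmf pools against 0.372% and 0.42% in the wild-type pools. For these last 2 genes the genotypes did not overlap and the counting intervals of the genotypes were apart, although the intervals cover counting error only and shares within a cluster depend on how shared reads were assigned.

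The difference between the 2 mutant libraries was larger than that between the wild-type libraries for every one of the 10 genes. Mutant replicate 2 was above mutant replicate 1 by 1.61 times (Solyc03g005770) to 3.31 times (Solyc02g085950). On the log2 scale the difference had a median of -0.98 over the 10 genes, with -0.99 over rbcS and -0.98 over CAB, against -0.11 over all genes tested. Between the wild-type libraries the median difference of the 10 genes was -0.21. Mutant replicate 1 was the lowest library for 31.3% of all genes tested, and for 32.4% of those with a mean of at least 100. The exact 95% counting interval of the ratio between the mutant libraries lay above 1 for all 10 genes, with lower bounds from 1.32 (Solyc02g070970) to 3.19 (Solyc02g085950). It was wide for the genes with few reads, at 1.58 to 3.10 for Solyc02g070950 and 1.95 to 3.62 for Solyc02g070980. These intervals cover counting error only and compare 2 libraries, not 2 conditions.

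**Figure D4:**
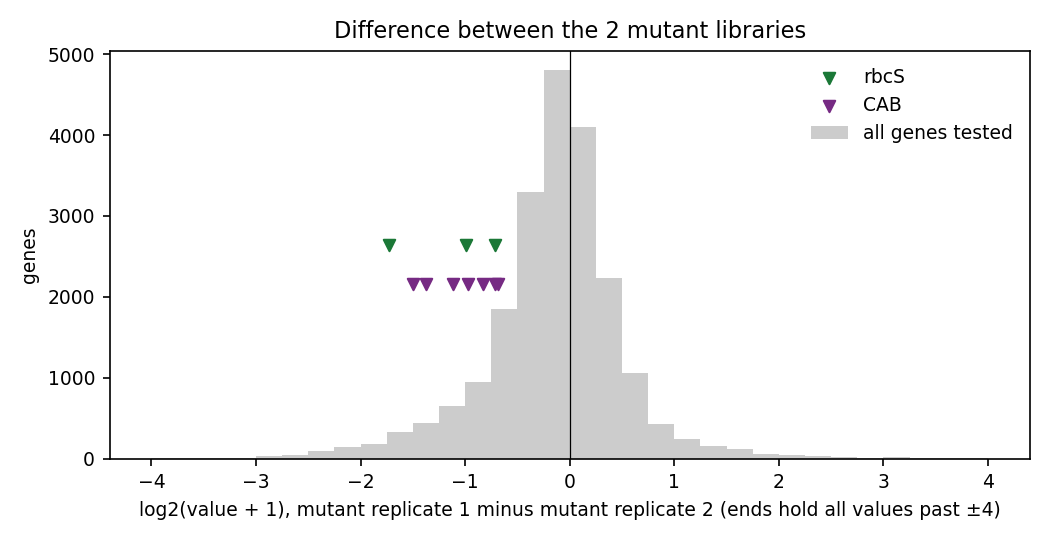
Histogram of the difference between mutant replicates 1 and 2 on the log2(value + 1) scale over all 21437 genes tested, with the rbcS and CAB genes marked as triangles at arbitrary heights. All 10 triangles lie to the left of 0, between -1.73 and -0.68.

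Among further genes of photosynthesis, 13 of 14 were lower in mutant replicate 1 than in mutant replicate 2, against 60% of all genes tested. These are the listed genes that could be paired with a name, 7 of 24 other light-harvesting identifiers, 6 of 13 for photosystem subunits and plastocyanin, and 1 of 9 for carbon fixation. None of the 14 passed in either direction in limma, against 0.215% of all genes tested. At an unadjusted p under 0.05 there were 0, against 6.2%. With edgeR and DESeq2 there were 0, against 0.233% and 0.998%. So few genes cannot be told from these shares. Of the 7 other light-harvesting genes, all were lower in mutant replicate 1 than in mutant replicate 2, with a median difference of -0.96, and 6 had mutant replicate 1 as their lowest library. In none of the 7 were both mutant libraries below both wild-type libraries, against 12.1% of all genes tested. With 7 genes this count cannot be told from that share. Their median log2 fold change was -0.25, which became 0.23 without mutant replicate 1. The 2 with the highest means were CAB4, a photosystem II antenna gene, at 10957 and 11108 in the tmf pools and 7454 and 12153 in the wild-type pools, and CAB9, at 3194 and 4882 against 4088 and 4390. Listed light-harvesting identifiers without a paired name are not in these counts. Of those beside the CAB clusters, Solyc02g071030 was lower in both mutant libraries (log2 fold change -0.96). Solyc02g070990 and Solyc02g071000 were higher in both, and Solyc02g071010 and Solyc03g005790 overlapped.

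The summed reads of the 7 named light-harvesting genes were 1.17 and 0.843 for each rbcS read in the tmf pools. In the wild-type pools they were 0.935 and 0.972, so this ratio overlapped between the genotypes. The overlap rests on CAB4, which alone gave 10957 and 11108 of the 18193 and 24968 summed normalised reads in the tmf pools. In the wild-type pools CAB4 gave 7454 and 12153 of 19515 and 24704. Without CAB4 the ratio would be lower in both tmf pools than in both wild-type pools. Among the 6 photosystem and plastocyanin genes, the median difference between the mutant libraries was -0.90, and 5 were lowest in mutant replicate 1. The exception was PSBS, a photoprotection protein of photosystem II, at 2508 and 2366 in the tmf pools and at 1436 and 2153 in the wild-type pools, named after its values were seen. PSBP, of the oxygen-evolving complex, was at 3371 and 6296 in the tmf pools and at 5635 and 5508 in the wild-type pools, and PSBO, of the same complex, at 2659 and 5286 against 5473 and 4618. The gene for sedoheptulose bisphosphatase of the Calvin cycle (Solyc05g052600) was at 278 and 483 against 444 and 383. Reads of the 6 photosystem and plastocyanin genes relative to rbcS also overlapped. They were 0.952 and 0.855 for each rbcS read in the tmf pools and 1 and 0.876 in the wild-type pools. This overlap rests on PSBS, without which mutant replicate 1 would be about level with wild-type replicate 2, the lower wild-type value. Whether the CAB clusters differ from these genes in their response to genotype was not tested.

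Shoot meristem markers were mostly higher in the low library, the opposite of the photosynthesis genes. Of the 7 shoot meristem genes, 6 had a higher level in mutant replicate 1 than in its partner, against 39.8% of all genes tested, with a median difference of 0.81 on the log2 scale, and 5 had mutant replicate 1 as their highest library, against 24.6% of all genes tested. Their summed level was 6329.6 normalised reads in mutant replicate 1, 3876 in mutant replicate 2, and 3698 and 4269 in the wild-type pools. The wild-type pools also differed at these genes, with a median of -0.47 for replicate 1 minus replicate 2. TKN2, a KNOX homeobox gene of the meristem, was at 2797 and 1062 in the tmf pools and 841 and 1117 in the wild-type pools, and FAB, a receptor kinase gene that limits meristem size, at 1520.3 and 869 against 1320.4 and 980. The 6 named genes of lateral organs, which include YABBY genes of leaf primordia, differed less. Of these 6 genes, 5 were lower in mutant replicate 1 than in mutant replicate 2, against 60% of all genes tested, with a median difference of -0.31. Their summed level went the other way, at 4227 in mutant replicate 1 and 4063 in mutant replicate 2. In the wild-type pools it was 3928 and 4098. The 2 with the highest means were YABBY genes, Solyc01g091010 at 2015 and 1470 in the tmf pools and 1664 and 1544 in the wild-type pools, and Solyc08g079100 at 1309 and 1441 against 1402 and 1414. None of these 13 genes passed between the genotypes in limma, against 0.215% of all genes tested. At an unadjusted p under 0.05 there were 0, against 6.2%. With edgeR and DESeq2 there were 0, against 0.233% and 0.998%. So few genes cannot be told from these shares. The part of these markers in the rbcS and CAB levels was not tested.

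**Figure D5:**
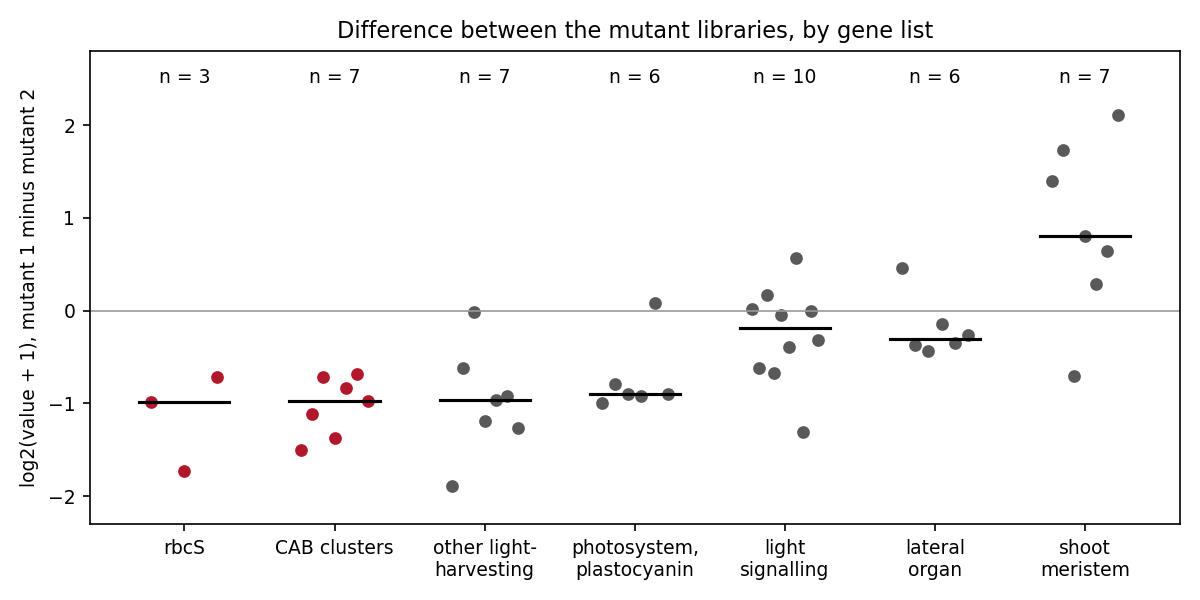
Difference between mutant replicates 1 and 2 on the log2(value + 1) scale for each named gene, by list; points are genes, black lines are medians and n is the number of genes. The rbcS, CAB, other light-harvesting and photosystem medians lie between -0.99 and -0.90, the lateral organ median at -0.31 and the shoot meristem median at 0.81.

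Regulators of greening and light response were read in all libraries. Of 10 listed genes for photoreceptors, their signalling partners and greening factors, none passed in either direction in limma, against 0.215% of all genes tested. At an unadjusted p under 0.05 there were 2, against 6.2% of all genes tested. With edgeR and DESeq2 there were 0, against 0.233% and 0.998%. The median log2 fold change was 0.09. PHYA, a phytochrome gene, was at 2285 and 2286 in the tmf pools and 2578 and 1817 in the wild-type pools, and DDB1, the gene of the high pigment 1 mutant, at 1447 and 1288 against 1837 and 1307. GLK2, which promotes chloroplast development, and HY5, a transcription factor of light responses, were picked out after their values were seen. GLK2 was at 10.7 and 27.9 in the tmf pools and at 50.2 and 41.3 in the wild-type pools, lower in both mutant libraries and lowest in mutant replicate 1 (log2 fold change -1.34 ± 0.50 SE; limma adjusted p = 0.679). HY5 was at 482 and 326 in the tmf pools and at 178 and 236 in the wild-type pools, higher in both mutant libraries (log2 fold change 0.95 ± 0.28 SE; limma adjusted p = 0.453). GLK1, a relative of GLK2, was at 86.9 and 115 against 106 and 111.

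Genes with the most similar pattern were looked up over the 4 libraries, among 12250 other genes with a mean of at least 100. Likeness was the root mean square difference of log2 values, each centred over the libraries. Closest to the rbcS sum were Solyc11g012440, at 335 and 642 in the tmf pools and 446 and 553 in the wild-type pools (0.00926), and Solyc05g009360, at 104 and 205 against 142 and 178 (0.0247). Closest to the CAB sum were Solyc02g092790, at 623 and 1546 against 2046 and 1932 (0.0865), and Solyc12g009820, at 105 and 233 against 261 and 267 (0.0897). With 4 libraries such likeness is only a description, and these identifiers were not paired with names.

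Of the identifiers just past the chromosome 2 cluster, the nearest were not lowest in mutant replicate 1. Solyc02g070990 was at 19.3 and 26.8 in the tmf pools and at 15.9 and 18.3 in the wild-type pools (log2 fold change 0.40; limma adjusted p = 0.999). Solyc02g071000 was at 19.3 and 47.3 against 9.89 and 16.1 (1.20; limma adjusted p = 0.822). Both were higher in both mutant libraries, on 28 to 83 reads a library. A pair further on had their lowest level in mutant replicate 1. Solyc02g071010 was at 266 and 914 in the tmf pools and at 643 and 644 in the wild-type pools. Solyc02g071030 was at 580.5 and 1990.3 against 2084 and 2088. In both the wild-type libraries nearly coincided, and mutant replicate 2 was above them in the first and below them in the second. These neighbours are among the other light-harvesting identifiers listed above, and no name was tried for them. At Solyc02g070960, an identifier inside the cluster, all 4 libraries had 0 reads. The limit that 3 reads set is 1.06 to 1.71 normalised reads by library, for counting error only.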

How the data were processed

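The values are a deposited signal, read counts that the authors scaled to a total of 10000000 in each library. The submitters' processing notes list Bowtie 0.12.5 and edgeR. The sources used here do not state build, annotation, counting or strandedness. Every value above 0 was a whole multiple of its library's smallest (100% in each library, tolerance 1e-06), which returned the reads.

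Genotypes were compared in limma 3.58.1 (R 4.3.3) on log2(value + 1) with its trend option, keeping genes whose mean reached 1, Benjamini-Hochberg adjusted over all genes, two-sided, threshold 0.05. Fold changes are on this scale, which understates low genes. Alternatives used edgeR 4.0.16 and DESeq2 1.42.0 on recovered reads. The fits were tested on simulated data. Same-numbered libraries' deviations correlated at -0.109, so the numbers were not taken to pair the samples.

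Names were printed where the RefSeq gene table (SLM_r2.1) has them on the stated chromosome within 5 percentage points of the same relative order. This held for 37 of 72 further listed identifiers, of which the YABBY, cryptochrome and sedoheptulose bisphosphatase genes were matched to aliases after the table was seen. All 10 genes are named whatever their result, with TMF, in each list the passing genes or else the 2 with the highest mean, and the 2 nearest patterns for each family. Other genes were chosen after their values were seen, and WUS and CLV3 are given as genes of the meristem. The genes and lists were chosen with earlier results of these data known.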

Additional observations from a re-analysis of the deposited data

How the results depend on the processing

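The crossed block, the CAB to rbcS ratio and the counts of genes lowest in mutant replicate 1 or not overlapping were chosen after the data were seen. The 46 genes called became 19 with a mean of at least 10, 214 with DESeq2, 368 under the replicate block, 219 under the crossed block, which sets mutant 1 beside wild type 2, and from 6 to 61 when 1 library was left out; the cause was not tested. None of the 10 genes was called higher under any setting run, and 1, Solyc03g005780, was called lower under DESeq2, the replicate block and the crossed replicate block (adjusted p = 0.0295), and 0 under the other 12 settings. In 140 of 150 gene and setting pairs the direction and call were as in the main test. Leaving out 1 library gave log2 fold changes from -0.70 to 0.29 for Solyc02g063150, from -1.05 to 0.68 for Solyc02g085950, from -0.43 to 0.29 for Solyc03g034220 and from -0.60 to 0.78 for Solyc02g070980. The direction turned for Solyc02g063150 (0.29), Solyc02g085950 (0.68) and Solyc03g034220 (0.29) without mutant replicate 1, for Solyc02g085950 with edgeR (0.055), for Solyc03g034220 without wild-type replicate 2 (0.08), and for Solyc02g070980 without mutant replicate 2 (-0.60) or wild-type replicate 1 (-0.04). With 1 library left out, the log2 ratio of genotype means ran from -0.57 to 0.36 for the rbcS sum and from -1.52 to -0.34 for the CAB sum. Such fits let a lone library borrow the spread of the other genotype. TMM and median-of-ratios rescaling left 10 genes lowest in mutant replicate 1 and 6 CAB genes not overlapping. Depth did not limit the abundant genes, whereas Solyc02g070950 and Solyc02g070980 rest on 56 to 220 reads a library.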
